A study of Cyanidioschyzon merolae with 75 samples.

Results

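The 150 genes here were those of the red alga Cyanidioschyzon merolae whose measured log2 ratio moved least over 25 samplings of a synchronised culture. They are candidates for constant expression. They were taken from the 4576 genes on the array by their range, which is the highest minus the lowest log2 ratio of a gene over the 25 times. The 200 genes with the highest mean log2 Cy5 intensity were left out first, and the 150 smallest ranges were then taken from the remaining 4376 genes. The range was therefore fixed by the choice, and it is given below as a description with no test.

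Cells of strain 10D, brought into step by light and dark cycles, were sampled every 2 h from 2 to 50 h. RNA of each time carried the dye Cy3, and a mixture of the samples of the cell cycle carried Cy5 on every array, so a ratio of 0 on the log2 scale after centring means the array's typical relation to the mixture. There were 3 series of 25 arrays with no other treatment or genotype, and 73 of the 75 arrays came with intensities of both dyes. At the 24 times where all series had intensities, the third series held the mean of the others for 100% of probes within 0.01%, so each time gave 1 value per gene, and the first and second series served as repeated readings of it. Nothing in the labels ties the series to separate cultures, and differences between times have no culture replicate behind them. The median Cy5 intensity was 12093 to 14416 on the arrays of 2, 4, 6 and 26 h and 552 to 4668 on the other arrays.

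C. merolae is a unicellular red alga of acidic hot springs, with a nucleus, a single mitochondrion and a single chloroplast in each cell. Light and dark cycles bring the division of these compartments and of the cell into step, and many transcripts follow the time of day or the stage of division in such cultures. Transcripts that stay level serve as references, against which the level of other transcripts is scaled when the amount of RNA or the labelling differs between samples. The gene table used here gave a locus tag and no product for any of the genes, so the genes are named by tag and no role is given to them.

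The ranges of the 150 genes lay between 0.31 and 0.48 on the log2 scale, with a median of 0.44. The highest ratio of a gene over 25 times was thus 1.24 to 1.40 times its lowest, and 1.36 times at the median. The median range of all 4576 genes was 0.92. These are ratios of intensities for which no local background was used, and not folds of transcript level. With an estimated background removed by normexp, the median range was 0.94 for the 150 and 1.52 for all genes. The 200 brightest genes had a median range of 2.62, and none of them came below 1.13, so leaving them out removed no gene that would otherwise have been chosen. The last genes inside the limit were CMF168C with a range of 0.482, CMJ302C with 0.484 and CML173C with 0.484. The first outside it were CMK284C with 0.484, CMR151C with 0.484 and CMI165C with 0.484, so the limit fell in a continuous run of values with no gap.

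**Figure D1:**
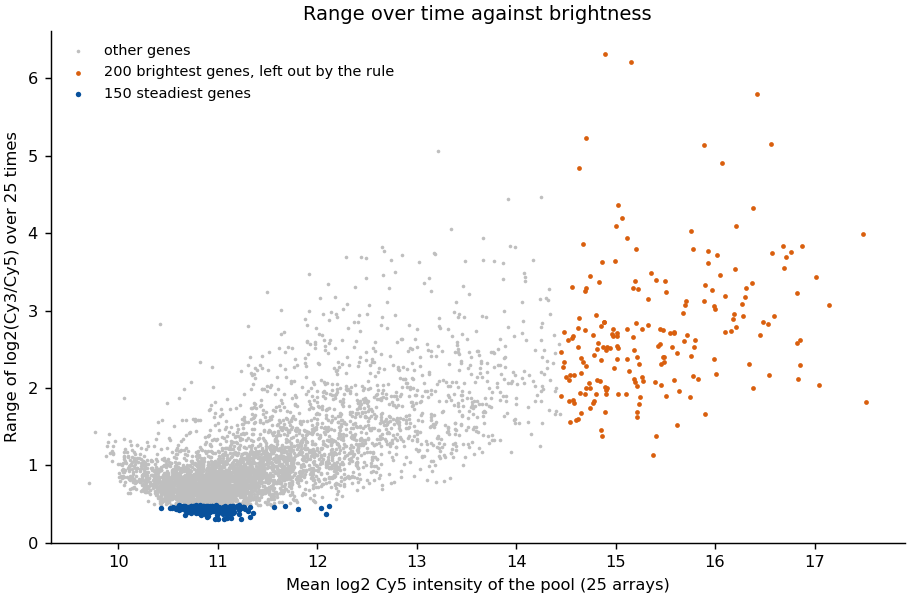
Each point is a gene, with its mean log2 Cy5 intensity on the horizontal axis and its range over 25 times, in log2 units, on the vertical axis; the 150 steadiest genes and the 200 brightest genes are coloured apart from the rest. The steadiest genes lie between 10.43 and 12.12 on the brightness axis, and the range of the cloud widens to the right of them.

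The smallest range belonged to CMG165C. Its log2 ratio was lowest at -0.17 at 16 h, had a median of 0.04, and was highest at 0.14 at 30 h. Every value from 18 to 32 h lay between -0.06 and 0.14, and the low point was a pair of neighbouring times, with -0.15 at 14 h and -0.17 at 16 h. The repeated readings of CMG165C at 16 h were -0.12 and -0.21, and those at 30 h were 0.14 and 0.12. These times were picked as the extremes of the mean of the readings, so nothing is read from their separation. At 24 h the readings were 0.04 and -0.20, on opposite sides of the array median. Its raw intensities moved far more than this ratio, from 428 at 30 h to 12678 at 2 h in Cy5 and from 1060 at 34 h to 16398 at 26 h in Cy3.

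Of the next genes in order of range, CMO075C ran from -0.11 at 20 h over a median of 0.01 to 0.20 at 16 h. CMQ290C ran from -0.18 at 22 h over a median of -0.05 to 0.13 at 26 h. CMJ246C ran from -0.23 at 34 h over a median of 0.01 to 0.09 at 46 h. The extremes of these genes fell at different times, and in CMJ246C the low side of the range was the longer one. CMQ057C, with a range of 0.33, was lowest at 30 h and highest at 34 h, times at which CMQ121C, with a range of 0.34, was highest and lowest. CMG102C had its whole range above -0.05, from -0.04 at 36 h over a median of 0.05 to 0.29 at 10 h. The other genes among the first 12 were CMT502C, CMD016C, CMG167C and CMT497C, with ranges of 0.34 to 0.36, and CMK294C, which is described next.

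**Figure D2:**
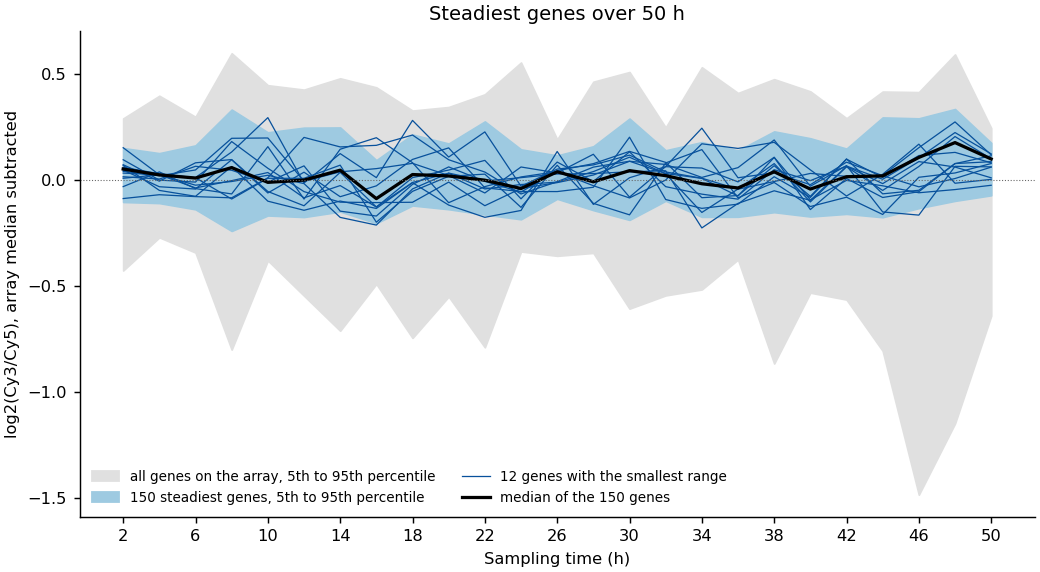
Log2 ratio of Cy3 to Cy5, centred on each array's median, against sampling time in h, with a grey band from the 5th to the 95th percentile of all genes, a blue band for the same percentiles of the 150 steady genes, thin lines for the 12 smallest ranges and a black line for the median of the 150. The black line rises to 0.18 at 48 h, and CMG165C stays between -0.17 and 0.14.

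Of the 150 genes, 2 were measured by 2 probes, and in both the mean of the probes had a smaller range than either probe. On the whole array 10 genes had 2 probes, and the same held for all of them except CMS176C and CMT228C. The probes of CMK294C had ranges of 0.72 and 0.85 on their own, against 0.31 for their mean, and correlated at -0.59 over the 25 times. The values of the first and second probe were 0.39 and -0.56 at 8 h, and 0.47 and -0.56 at 48 h. CMK294C held the second smallest range of all genes as a mean, whereas 1227 genes had a smaller range than its steadier probe. The probes of CMO048C had ranges of 0.92 and 0.56, against 0.47 for their mean, with a correlation of -0.17 over the 25 times, and 377 genes had a smaller range than the steadier probe. In each gene the dimmer probe, at a mean log2 Cy5 of 10.57 in CMK294C and 10.07 in CMO048C, was the one highest at 48 h, while the brighter, at 11.90 and 11.63, stood below the array median there. Among the 10 genes with 2 probes, these were the only ones whose probes correlated below 0. No single probe of either gene had a range inside the limit.

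**Figure D3:**
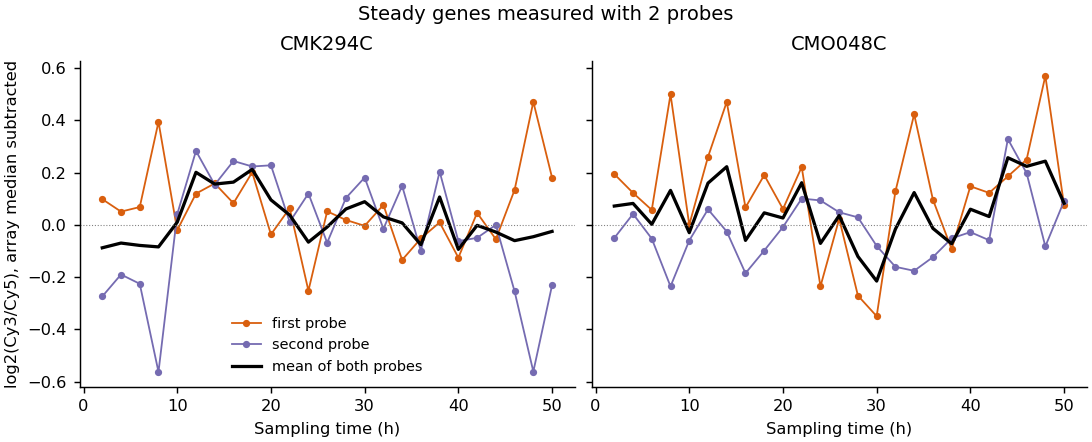
Log2 ratio against time in h for each probe of CMK294C and CMO048C and for their mean. The probes of CMK294C lie on opposite sides of their mean at 8 h (0.39 and -0.56) and again at 48 h (0.47 and -0.56), and the range of that mean is 0.31.

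The steady genes were dim. Their mean log2 Cy5 ran from 10.43 to 12.12 with a median of 10.92, against a median of 11.26 over all genes. With the genes sorted by brightness into 10 groups of 457 or 458, groups 2 to 5 held 134 of the 150, the dimmest group held 4 and the 2 brightest groups held 0. Set against the dimmest 1% of spots on the same arrays, a measure of how far a spot stood above the darkest ones, their Cy5 intensity was 1.42 to 5.16 times as high, with a median of 1.95, against a median of 2.56 for all genes. It was under 2 times as high in 82 of them (54.7%), against 29.7% of all genes, and at least 3 times as high in 6. No local background was used here, so how much of an intensity came from the transcript was not measured.

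Range and brightness went together over the array as a whole. The median range was 0.82 in the dimmest of the 10 groups, 0.71 in groups 3 and 4, 1.03 in group 7 and 2.22 in the brightest. Spearman's rho between brightness and range was 0.65 over 4576 genes, which share arrays and depth of signal and are not independent. The median log2 ratio of a whole brightness group also moved with time. It ranged over 0.64 in the dimmest group, which stood highest at 0.48 at 48 h, and over 1.48 in the brightest group, which stood lowest at -1.25 at 46 h. Group 2, with 28 of the steady genes, had a median that ranged over 0.44. Groups 3, 4 and 5, with 106 of them, had medians that ranged over 0.28, 0.18 and 0.21, and group 6, with 6 of them, had one that ranged over 0.28. The part of brightness in their steadiness was not tested.

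The brightest of the steady genes were CMC127C, CMC028C, CMH190C and CMA009C, with mean log2 Cy5 values of 12.12, 12.08, 12.04 and 11.81. CMC028C combined this brightness with a range of 0.38, from -0.21 at 10 h over a median of -0.03 to 0.17 at 44 h. CMH190C ran from -0.19 at 22 h over 0.03 to 0.26 at 30 h. CMA009C ran from -0.35 at 8 h over -0.05 to 0.09 at 4 h. CMA009C lay further below the array median than above it, and CMH190C the other way round. These 4 genes stood 3.84 to 5.16 times above the dimmest spots of their arrays. The dimmest of the steady genes, CMQ136C, CMS413C, CMT236C and CMM247C, had ranges of 0.45 to 0.46, and CMS413C and CMT236C were highest at 48 h.

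Repeated readings of the steady genes scattered about as much as those of other genes. The SD of 1 reading was 0.029 to 0.121 with a median of 0.051, against a median of 0.054 over all genes, and Spearman's rho between this SD and the range was 0.01 over the 4576 genes. The lowest reading SDs were those of CMK240C with 0.029, CMH019C with 0.030, CMJ009C with 0.031 and CMO048C with 0.034. The highest were those of CMS360C with 0.121, CMT443C with 0.101, CMQ101C with 0.098 and CMH170C with 0.087. CMS360C ran from -0.09 at 24 h over a median of 0.06 to 0.32 at 48 h, and its SD over times was 1.39 times the error of a mean of 2 readings, the lowest such ratio of the 150. By time, the reading SD over the steady genes was lowest at 6 h with 0.028 and highest at 46 h with 0.101.

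The movement of the steady genes was also set beside the scatter of their readings. Over the 24 times with both readings, the SD of a gene was 1.39 to 5.71 times the error of a mean of 2 readings. The median was 3.19, and over all genes it was 5.53. The ratio was above 1 in 150 of the 150 and in 4576 of 4576 genes, so being above 1 does not set the steady genes apart. With the first and second series as 2 readings per time, limma called a difference between times at an adjusted p under 0.05 in 150 of the 150 genes, where 99.9% of all genes were called. This fit sets times against readings of 1 sample, and the spread over times is close to the quantity that chose the genes, so nothing is read from the count.

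The extremes of the steady genes were unevenly spread over the arrays, 48 h holding the most maxima and 16 h the most minima. At least 1 maximum fell at 20 of the 25 times, and at least 1 minimum at 20. Their median log2 ratio peaked at 48 h with 0.18, beside 0.11 at 46 h and 0.10 at 50 h, was lowest with -0.09 at 16 h, and lay between -0.04 and 0.06 at every other time. The highest value of the series fell at 48 h in 46 of them (30.7%), against 15.2% of all genes, and at 30 h in 22 (14.7%), against 10.6%. It fell at 44 h in 14 (9.33%), against 5.79%, at 46 h in 12 (8%), against 7.08%, and at 8 h in 12 (8%), against 12.3%. The lowest value fell at 16 h in 19 (12.7%), against 2.19% of all genes. At 48 h, 127 of the 150 stood above the array median, beside 129 at 50 h, 113 at 46 h and 112 at 2 h. The centring puts as many probes of an array above its median as below. Some genes of like brightness rose at 48 h too, and the medians of the whole brightness groups 2 and 3, which include steady genes, were highest at 48 h, with 0.33 and 0.21. Those of groups 4 and 5 were highest at 30 h, with 0.13 in each, and those of groups 6, 7 and 8 were lowest at 48 h. The rise at 48 h is thus not particular to the steady genes in groups 2 and 3. For groups 4 and 5 the medians at 48 h were not set beside those of the steady genes. Counted together, 46, 48 and 50 h held the highest value of 62 steady genes (41.3%) and the lowest of 5 (3.33%), while they held the highest of 23.1% and the lowest of 29.7% of all genes. CMT094C was such a gene, running from -0.11 at 28 h over a median of 0.03 to 0.37 at 48 h. CMN091C, in contrast, was lowest at 44 h with -0.13 and highest at 30 h with 0.35, and CMQ464C was highest at 8 h with 0.43 and lowest at 48 h with -0.03. CMT094C, CMN091C and CMQ464C were singled out here after their values were seen.

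**Figure D4:**
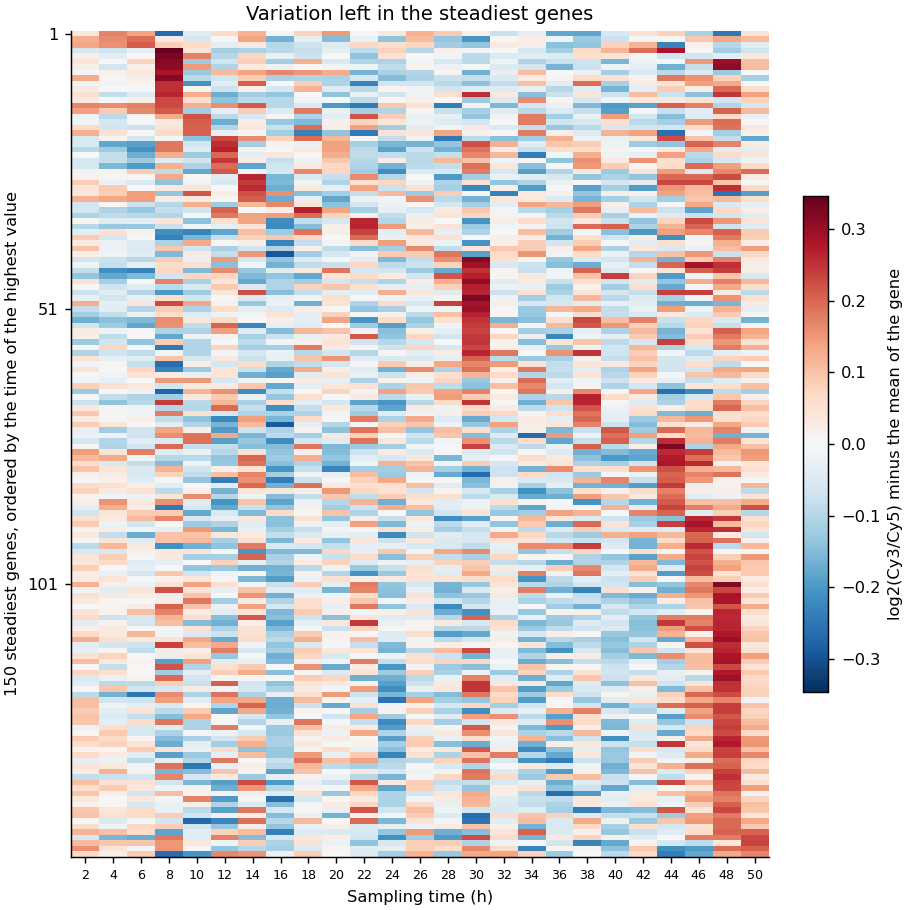
Log2 ratio of each of the 150 steady genes (one line per gene, ordered by the time of its highest value) at each time in h, after subtraction of the gene's own mean, in colours from below to above that mean. A band of high values crosses many genes at 48 h, where 46 of the 150 have their maximum, and a band of low values crosses them at 16 h, where 19 have their minimum.

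The spread among the steady genes on 1 array was smallest at 26 h, with an SD of 0.066, and largest at 8 h, with 0.169. It was 0.066 to 0.083 where Cy5 was bright, at 2, 4, 6 and 26 h, and 0.075 to 0.169 elsewhere. The same SD over all genes was 0.233 to 0.264 on these 4 arrays and 0.259 to 0.621 on the others. The 4 arrays held the highest value of 4 steady genes (2.67%) and the lowest of 6 (4%), against 4.94% and 2.47% of all genes.

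The mean ratio of the steady genes lay close to the median of the array. Their mean log2 ratio over 25 times lay between -0.09 and 0.12, with an SD of 0.042 among genes, and it was within 0.1 of the array median in 143 of the 150, against 66.1% of all genes. Over all genes the mean ratio ran from -1.80 to 0.38. Each dye on its own moved more than the ratio. After centring each channel on its array median, the median range of the steady genes was 1.25 in Cy5 and 1.21 in Cy3, against 1.84 and 1.71 for all genes. The range exceeded that of the ratio in 150 of 150 for both dyes, and in 4303 (Cy5) and 4465 (Cy3) of 4576 genes, and since the genes were chosen for a small range of the ratio nothing is read from this count. The Cy5 channel held the mixture, and not the RNA of the time sampled, on every array.

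Steps from one time to the next were large beside the whole movement of the steady genes. The mean squared step between neighbouring times was 1.72 times the variance over times at the median, against 1.45 for all genes and 0.85 for the 200 brightest, so values followed each other less smoothly than in the bright genes. The correlation of the first 12 times with the 12 times 24 h later had a median of -0.09 in the steady genes, 0.04 in all genes and 0.46 in the 200 brightest.

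Each cycle by itself gave a largely different list, with 50 of the 150 kept by the first cycle alone and 61 by the second alone. Within 2 to 24 h the steady genes had a median range of 0.35, and within 26 to 48 h of 0.40, against 0.68 and 0.79 for all genes. The second cycle was the wider one in 97 of them (64.7%), against 68.8% of all genes. To look at values that the choice had not used, the rule was applied to 1 cycle and the chosen genes were followed in the other. The 150 genes chosen on the first cycle had a median range of 0.54 in the second, against 0.79 for all genes and 0.62 for brightness groups 2 to 5, and 93 of them (62%) lay in the lower quartile of all genes. The 150 chosen on the second cycle had a median range of 0.47 in the first, against 0.68 for all genes and 0.55 for brightness groups 2 to 5, and 86 of them (57.3%) lay in the lower quartile. On the other cycle 17 and 20 of them were above the median of all genes. The lower quartile of all genes ended at 0.60 for 26 to 48 h and at 0.52 for 2 to 24 h. These limits lay just below the medians of 0.62 and 0.55 of groups 2 to 5. How many genes of like brightness fell under them was not counted, so the shares of 62% and 57.3% are not set apart from brightness. The lists had 19 genes in common, which is 12.7% of each, where a list of 150 is 3.43% of the genes the rule chose from. That 3.43% is not matched for brightness, and the part of brightness in the overlap was not tested.

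All of these 19 were among the 150 steady genes. The range of the 150 was taken over both cycles together, so it used the same values and nothing is read from this. The 19 included 11 of the 12 with the smallest range, CMG102C being the exception, although the mean of CMK294C rests on opposed probes. CMP134C, singled out after its values were seen, had a range of 0.11 before 26 h and 0.36 from 26 to 48 h. For CMC028C, the brightest of the 19, these were 0.28 and 0.34. For CMG165C they were 0.24 and 0.22.

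Daily rhythm and level were read from the same values that chose the genes, so the counts are given beside those of all genes and nothing is drawn from them. Limma called a 24 h rhythm in 2 of the 150 genes at an adjusted p under 0.05, where 24.0% of all genes were called. At an unadjusted p under 0.05 the counts were 12 (8%) of the steady genes and 37.3% of all genes. CMT314C had a fitted peak-to-trough difference of 0.24 and a peak at a sampling time of 17.0 h, repeating every 24 h. It ran from -0.14 at 28 h over a median of 0.09 to 0.34 at 12 h. CME157C had a fitted difference of 0.23 and a peak at 6.6 h, running from -0.19 at 46 h over -0.05 to 0.27 at 30 h. Leaving out 18 h or 28 h ended the calls of both genes, with 0 of the 150 called. The call of CMT314C held when any of 23 of the 25 times was left out, and that of CME157C for 14 of 25.

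The level in the second cycle was set against that in the first over 12 pairs of times 24 h apart. Limma called none of the 150 steady genes at an adjusted p under 0.05, where 4.46% of all genes were called. At an unadjusted p under 0.05 there were 2 steady genes (1.33%) and 15.8% of all genes. The differences of the steady genes ran from -0.12 to 0.14 with a median of 0.02. Of all genes, 0.240% were called higher and 4.22% lower in the second cycle.

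Of the 150, 148 were found in the gene table, and the share of steady genes among their neighbours was close to that among all genes. Of the 296 neighbours of steady genes 10 were steady themselves, which is 3.38%, against 3.28% of all genes. The 5 pairs were CMJ302C with CMJ303C, CMK109C with CMK110C, CMO073C with CMO075C, CMS059C with CMS060C, and CMF157C with CMF158C. Over the 25 times their correlations ran from -0.49 in CMO073C and CMO075C to 0.57 in CMJ302C and CMJ303C. The pairs were listed after their values were seen.

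Which genes counted as steadiest depended on how the arrays were scaled. Of the 150, 136 were also among the 150 steadiest in the authors' deposited log2 values, 70 after every array was brought to a common spread, 48 after normexp background correction and 31 after loess within each array. Normexp, which takes an estimated background from the intensities before the ratio, chose genes brighter than the median gene in 81 of its 150, against 12 by the rule used here, and 11 of those 12 were kept. Loess kept 2 of the 12. Lists from the first series alone and from the second alone had 73 genes in common (48.7% of each).

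Over these 4 scalings and the 2 single series, 9 genes were always among the 150 steadiest. They were CMG165C, CMO075C, CMQ121C, CMD016C, CMT497C and CMF157C, and beyond these 6, named after their values were seen, CMN271C, CMP230C and CMM334C. Their mean log2 Cy5 lay between 10.58 and 11.33. CMQ121C was the brightest of the 9 at 2.66 times the dimmest spots, with a reading SD of 0.041, and ran from -0.13 at 34 h over a median of -0.03 to 0.20 at 30 h. CMF157C ran from -0.07 at 12 h over 0.03 to 0.33 at 48 h, and CMD016C from -0.13 at 16 h over 0.01 to 0.22 at 48 h. CMT497C ran from -0.15 at 34 h over 0.03 to 0.21 at 48 h, with a reading SD of 0.039. Of the 9, 5 were highest at 48 h. After normexp the range of CMG165C was 0.61 and that of CMQ121C 0.47, against 0.31 and 0.34 by the rule used here. Normexp was among the settings that picked the 9, so their place under it was fixed by that choice.

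**Figure D5:**
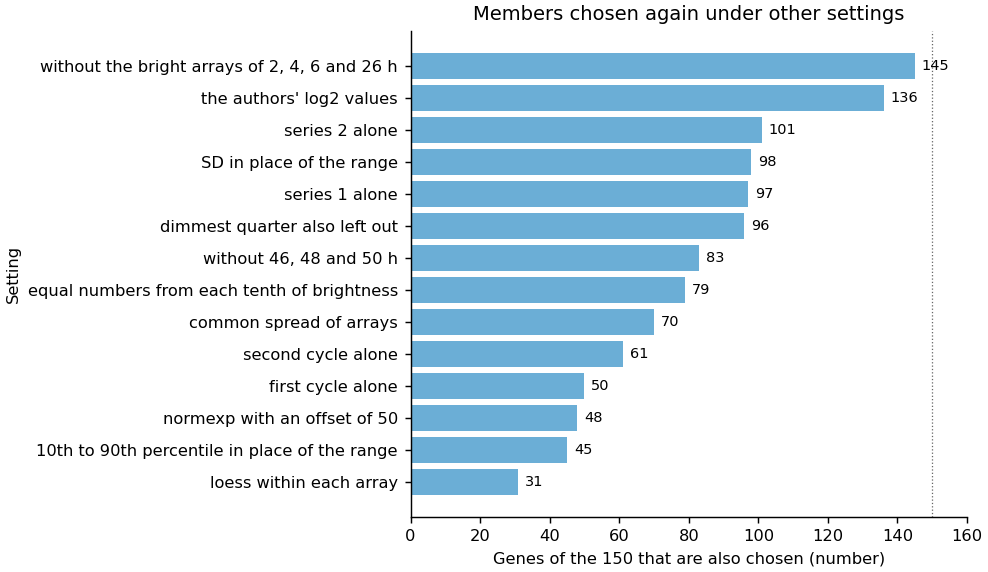
Number of the 150 steady genes that are again among the 150 steadiest when the values are scaled, measured or restricted in another way, out of 150 on the horizontal axis. The count runs from 31 under loess to 136 with the authors' deposited log2 values among the 4 scalings.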

How the data were processed

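Two-colour arrays were used at 25 times in 3 series. Per the file headers, the authors deposited for each probe a raw intensity in Cy3 and in Cy5 and a log2 ratio. The scanner, background handling and build were not given in the sources used here. Ratios were computed as log2 of raw Cy3 over raw Cy5 minus the array median, averaging the probes of the 10 genes with 2 probes. The authors' log2 values were deposited for all samples together and for each sample by itself, and these were equal for 74 arrays. Those for all samples together served as an alternative. In those given for each sample, the third series at 48 h repeats its 46 h values, for 100% of probes. The number of arrays and the readings limit the precision. The SD of the difference between the first and second series was 0.043 to 0.123 by time.

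Fits used limma 3.58.1 in R 4.3.3 over 4576 genes with Benjamini-Hochberg adjustment, and were tested on simulated data. Tables and plots were made with Python 3.11.15, pandas 2.3.3, numpy 2.4.6 and matplotlib 3.10.9. P-values measure only the scatter of these samples, which may be technical. Genes and lists were chosen with earlier results of these data known. Named were the 12 smallest ranges, the 3 genes on each side of the limit, the 4 brightest and 4 dimmest, the 4 lowest and 4 highest reading SDs, the genes with 2 probes, the 6 steadiest of those kept under 6 settings, and up to 4 called for rhythm or level. Gene lists by product could not be filled. Alternatives were other scalings, measures of steadiness, brightness filters and sets of arrays. Locus tags were matched to a RefSeq gene table of assembly ASM9120v1, in which 4565 genes matched.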

Additional observations from a re-analysis of the deposited data

How the results depend on the processing

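The list of steady genes depended on the setting, and the cause was not tested. Of the 150, the number kept was 31 with loess, 48 with normexp, 70 with a common spread of arrays, 50 with the first cycle alone, 61 with the second cycle alone, 97 with series 1 alone, 98 with the SD in place of the range, 45 with the distance from the 10th to the 90th percentile, and 96 with the dimmest 25% of genes left out. Settings chosen after seeing the data kept 79 with equal numbers from each brightness group and 83 without 46, 48 and 50 h. With 1 time left out, 96 (without 30 h) to 150 were kept, and 84 genes were kept whichever time was left out. With 1 series dropped, 124 to 135 were kept. Series 3 holds the mean of the others wherever all have intensities. Dropping a series is thus no test of leaving its readings out. The median range of 0.44 was 0.94 with normexp, 0.40 with a common spread, 0.35 and 0.40 in the first and second cycle, and 0.48 with series 1 alone. The median log2 brightness of 10.92 was 11.89 in Cy3, 10.44 without the bright arrays and 9.99 with normexp. Called for rhythm were 11 of the 150 with loess (30.5% of all genes), 5 with normexp (29% of all genes) and 6 with a common spread (28.5% of all genes). With 1 time left out, 0 to 6 were called, the lowest without 18 h or 28 h and the highest without 14 h or 42 h. With series 1 or series 3 dropped, 6 were called, but series 1 stays inside the mean that series 3 holds. Dropping series 3 also removes 14 h, so its count is not separate from the one without 14 h. The series are readings of 1 sample and the numbers pair no cultures. With all arrays as separate values and the series as a replicate block, 83 of the 150 were called for rhythm (67.5% of all genes) and 16 for level (26.3% of all genes), since readings then count as samples. The count for the time effect was 149 with loess (99.6% of all genes) and 150 with the replicate block (99.9% of all genes). The time effect was not fitted with a series dropped. Its fit uses only the first and second series as readings, so dropping either leaves no separate repeated reading. The signal was dim and no local background was used, and how far this limits these values was not measured.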
